A study of Mus musculus with 16 samples.

Results

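Inflammasome and NOD-like receptor genes were examined in RNA-Seq of CD11b+ brain cells from CON, MAL, and MAL-BG mice. The 10 genes were taken by name from the 24421 rows of the count table. They comprise the sensors Nlrp3, Nlrp12, Nlrp1b, Nlrc4, Nod1, and Nod2, the adaptor Pycard, the protease Casp1, the pore former Gsdmd, and the cytokine Il18. No measured value was used as a criterion, but earlier results of these data were known when the genes were chosen. All 10 had a row and passed the filter on low counts (more than 10 counts in at least 4 libraries).

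All mice were C57BL/6J females, fed from weaning for a month. The 4 CON libraries are from mice that ate standard chow and the 5 MAL libraries from mice on an isocaloric diet poor in protein and fat. The mice of the 7 MAL-BG libraries ate that same diet and were also gavaged with a mixture of E. coli and Bacteroidales species, while CON and MAL mice were gavaged with PBS. Magnetic beads held the cells by CD11b, an integrin chain that marks the myeloid lineage, microglia included, so a library is a mixture of whatever the beads held. The labels call the starting material cortical, whereas the methods of the study name whole cerebra.

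Inflammasomes are protein complexes that assemble in the cytosol when a sensor meets a microbial or danger signal. The sensor recruits the adaptor ASC, encoded by Pycard, which gathers and activates caspase-1, and this enzyme matures interleukin-1 beta and interleukin-18 and cleaves gasdermin D into a pore. In macrophages and microglia several of these genes are induced by NF-kB before assembly, a step called priming. NOD1 and NOD2 sense fragments of bacterial peptidoglycan and signal to NF-kB through the kinase RIPK2 rather than through caspase-1.

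Counts per library ranged from 10312703 to 13461574 in CON, from 10864121 to 12819982 in MAL, and from 14191791 to 18705202 in MAL-BG, so every MAL-BG library was the deeper. The 10 microglial markers were present in every group, and their summed level was 16801 to 27499 CPM (counts scaled to the effective library size) in CON, 17472 to 29780 in MAL and 36846 to 50302 in MAL-BG. Markers of other cells also differed between groups. Summed choroid plexus markers reached 13816 to 53657 CPM in CON, 6408 to 42174 in MAL, and 1762 to 16460 in MAL-BG. Of the 14 neutrophil markers with a row, 13 were called higher in MAL-BG in both comparisons, and only Csf3r, which microglia also express, was not. Stfa2l1, Elane, and Mpo passed the low-count filter only with the MAL-BG libraries, so a difference was built into their being tested. Summed over each group, their counts were 11, 31, and 85 in CON and 9, 15, and 14 in MAL. Without Csf3r, the summed level of the other 13 was 56.9 to 218 CPM in CON, 46.3 to 347 in MAL, and 207 to 14447 in MAL-BG, the highest in MAL-BG replicate 5. Monocyte markers were called lower in 3 of 10 against CON and 5 of 10 against MAL, neuron markers in 7 of 8 and astrocyte markers in 5 of 7 in both, and none of these were called higher. Oligodendrocyte markers were called higher in 3 of 7 in both, and endothelial markers in 2 of 8 against CON and 3 of 8 against MAL. Lymphocyte markers were called higher in 2 of 6 tested in both (Nkg7 and Klrb1c, genes of natural killer cells, named after their values were seen). In the other direction, 1 endothelial marker was called lower against CON and 1 lymphocyte marker against MAL. Over all genes, 11.4% were called higher and 21.7% lower against CON, and 10.2% and 20.2% against MAL. The part of the cell mixture in the results below was not tested. In such mixtures, fewer cells of a type and less RNA per cell cannot be told apart.

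The start-site regions of the 4 genes that were called are shown because 3 of them were lower together and 1 was higher. They are taken from RefSeq on GRCm38.p6, run 5′ to 3′ from 250 bases before to 50 bases after the start site, and are the first listed where a gene has more than 1. Capitals mark the motifs GAGGAA (PU.1, a factor that defines myeloid cells), TGANTCA (AP-1), and GGG followed by any 5 bases and CC (NF-kB), searched on both strands.
Nlrp3, chr11:59542436-59542735, plus strand: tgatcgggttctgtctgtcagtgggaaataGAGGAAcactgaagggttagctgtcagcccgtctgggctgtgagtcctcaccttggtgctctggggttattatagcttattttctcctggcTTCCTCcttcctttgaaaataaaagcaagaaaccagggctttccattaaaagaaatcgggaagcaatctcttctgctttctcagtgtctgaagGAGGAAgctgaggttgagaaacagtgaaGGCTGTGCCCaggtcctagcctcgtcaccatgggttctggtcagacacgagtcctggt
Nlrp1b, chr11:71230684-71230983, minus strand: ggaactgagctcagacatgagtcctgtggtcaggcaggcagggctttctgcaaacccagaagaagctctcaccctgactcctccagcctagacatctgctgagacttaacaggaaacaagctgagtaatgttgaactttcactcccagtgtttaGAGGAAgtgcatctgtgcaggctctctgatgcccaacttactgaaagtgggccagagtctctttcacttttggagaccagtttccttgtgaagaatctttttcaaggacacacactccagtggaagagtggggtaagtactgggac
Nlrc4, chr17:74459059-74459358, minus strand: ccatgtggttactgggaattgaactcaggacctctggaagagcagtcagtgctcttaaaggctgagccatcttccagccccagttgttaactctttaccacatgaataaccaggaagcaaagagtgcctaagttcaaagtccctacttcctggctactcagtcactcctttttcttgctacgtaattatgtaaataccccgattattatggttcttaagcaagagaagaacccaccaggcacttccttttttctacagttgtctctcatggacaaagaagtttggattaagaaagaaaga
Nlrp12, chr7:3249691-3249990, minus strand: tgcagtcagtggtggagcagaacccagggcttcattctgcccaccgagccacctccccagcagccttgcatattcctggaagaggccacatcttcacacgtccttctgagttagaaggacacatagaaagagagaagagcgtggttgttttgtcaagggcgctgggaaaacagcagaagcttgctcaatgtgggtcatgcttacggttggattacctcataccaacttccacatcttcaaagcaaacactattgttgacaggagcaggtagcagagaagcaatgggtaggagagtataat

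The Nlrp3 region held 3 PU.1 matches and 1 NF-kB match, and the Nlrp1b region held 1 PU.1 match. The second start site listed for each of these genes had 0 PU.1 matches, with 1 NF-kB match for Nlrp3 and 0 for Nlrp1b. No match to the 3 motifs was found in the Nlrc4 and Nlrp12 windows, and no matches of different motifs overlapped. Of 32851 start-site regions of this length, 28.3% held the PU.1 letters, 7.81% the AP-1 letters, and 50.8% the NF-kB letters. Regions were listed for 9 of the 10 genes, and of these 4 held PU.1, 0 AP-1, and 4 NF-kB letters.

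The question for these genes was whether diet alone, or diet with bacterial exposure, moved the machinery that senses microbes. MAL-BG differed from CON and from MAL in 3 of the 9 genes that passed the low-count filter in every group. These were the sensors Nlrp3, Nlrp1b, and Nlrc4, all lower. Nlrp12 was also called, as higher, but it passed the filter only through the MAL-BG libraries, so a higher level was the only call open to it. The downstream parts (Pycard, Casp1, Gsdmd, and Il18) and Nod1 and Nod2 were not called. A gene counted as called (a DEG) when its Benjamini-Hochberg adjusted p over 14565 genes was below 0.05 in the quasi-likelihood test of edgeR and its log2 fold change was larger than 0.58 in either direction. Against CON, 1 member was called higher and 3 lower, where 33.1% of all genes tested were called (11.4% higher and 21.7% lower). Against MAL, the counts were again 1 and 3, where 30.4% of all genes were called (10.2% higher and 20.2% lower). The share called, 3 of 9 without Nlrp12, was near this background. The median log2 fold change of the 10 genes was -0.11 against CON and -0.23 against MAL, beside -0.04 and -0.03 over all genes. The split of all calls depended on the scaling: higher calls made up 34.4% against CON and 33.4% against MAL, but 57.8% and 58.3% when libraries were scaled by the mean log2 CPM, which moved the median of all genes to 0.21 and 0.19. The direction of Nlrp3, Nlrp1b, and Nlrc4 was the same under every scaling tried. Both comparisons use the same MAL-BG libraries.

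**Figure D1:**
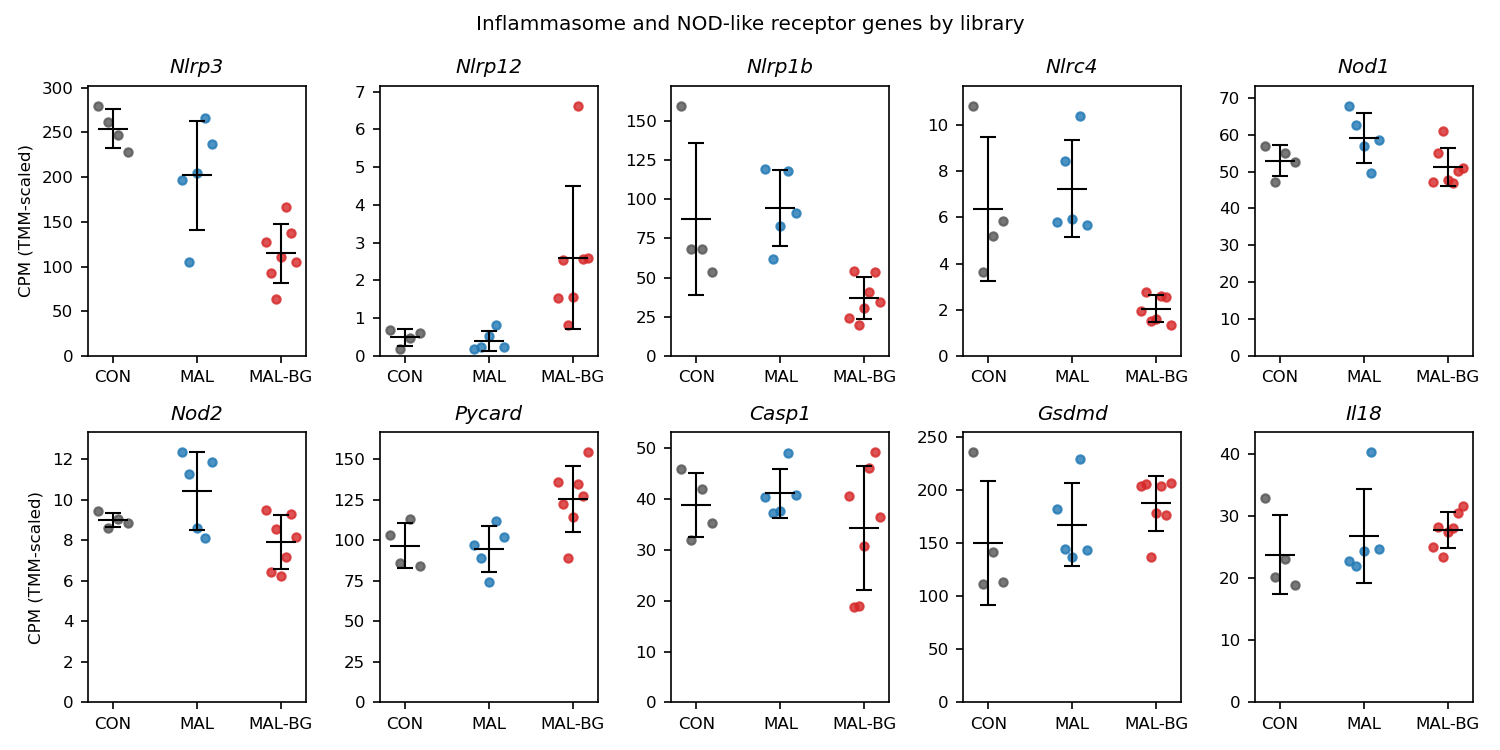
CPM of each of the 10 genes (vertical axes, each starting at 0) in every library of CON (n = 4), MAL (n = 5), and MAL-BG (n = 7), with the group mean and SD as black bars. Nlrc4 in MAL-BG (1.34 to 2.76 CPM) lies under all CON and MAL libraries and Nlrp12 in MAL-BG (0.827 to 6.62 CPM) above them.

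Nlrp3 senses ion flux and membrane damage and is the sensor most studied in microglia (ENSMUSG00000032691, chromosome 11, 59541569 to 59566955, plus strand). Its level was 279.6, 262, 247, and 228 CPM in the CON libraries, and 197, 105, 205, 266, and 237 CPM in the MAL libraries. In MAL-BG the lowest was 64.2, the median 111, and the highest 167 CPM. All MAL-BG libraries were below all CON libraries, as held for 11.1% of all genes tested, but they overlapped MAL, where replicate 2 was low. Means were 254 ± 21.9 CPM (SD, n = 4) in CON, 202 ± 60.9 (n = 5) in MAL, and 115 ± 33 (n = 7) in MAL-BG. Nlrp3 fell by 1.14 on the log2 scale against CON (SE 0.23, adjusted p = 0.000831 by edgeR's quasi-likelihood test), or 2.21-fold. Against MAL it fell by 0.81 (SE 0.21, adjusted p = 0.00606 in the same edgeR fit). Summed early response genes, which include NF-kB targets such as Nfkbia, were 18911 to 38401 CPM in CON, 20648 to 44830 in MAL, and 9061 to 24812 in MAL-BG, with 6 of 10 called lower against CON and 8 of 10 against MAL. This list was added after the members' values were seen, and its part in the Nlrp3 result was not tested.

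Nlrc4 senses bacterial flagellin and secretion-system proteins handed to it by NAIP proteins (ENSMUSG00000039193, chromosome 17, 74426255 to 74459144, minus strand). It was measured at 10.8, 3.62, 5.20, and 5.83 CPM in CON and at 5.79, 8.43, 5.94, 10.4, and 5.65 CPM in MAL. In MAL-BG it ran from 1.34 through a median of 1.95 to 2.76 CPM. Every MAL-BG library was below every CON and MAL library, as held for 6.36% of all genes tested. Group means were 6.37 ± 3.11 CPM (SD, n = 4), 7.24 ± 2.1 (n = 5), and 2.05 ± 0.585 (n = 7). Nlrc4 fell by 1.63 on the log2 scale against CON (SE 0.30, adjusted p = 4.56e-04 in edgeR), or 3.1-fold, and by 1.82 against MAL (SE 0.28, adjusted p = 1.52e-04 in edgeR), or 3.52-fold. These levels rest on 18 to 48 counts per MAL-BG library.

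Nlrp1b senses bacterial proteases and other disturbances of the cytosol (ENSMUSG00000070390, chromosome 11, 71152574 to 71242514, minus strand). CON libraries were at 159, 68.5, 67.9, and 53.7 CPM and MAL libraries at 119, 61.8, 82.8, 118, and 91.4 CPM. MAL-BG libraries ran from 19.9 through a median of 34.4 to 54.4 CPM. They were below all MAL libraries, as held for 8.95% of all genes tested, and overlapped CON only at its lowest library, replicate 4. The mean was 87.4 ± 48.5 CPM (SD, n = 4) in CON, 94.6 ± 24.3 (n = 5) in MAL, and 36.8 ± 13.5 (n = 7) in MAL-BG. Nlrp1b fell by 1.25 on the log2 scale against CON (SE 0.30, adjusted p = 0.00331 in edgeR) and by 1.36 against MAL (SE 0.29, adjusted p = 0.00132 in edgeR). Without CON replicate 1 the change against CON was -0.80 and Nlrp1b was still called. Near-identical genes lie beside it, so reads may be split between Nlrp1a, Nlrp1b, and the pseudogene Nlrp1c-ps. The 3 summed gave 123 ± 61.2 CPM in CON and 133 ± 32.4 in MAL, but only 48.3 ± 17.2 in MAL-BG.

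Nlrp12 is a receptor of myeloid cells, well known in granulocytes, that can dampen NF-kB signaling (ENSMUSG00000078817, chromosome 7, 3218643 to 3249771, minus strand). Outside MAL-BG it was the scarcest of the 10 genes, with 0.691, 0.186, 0.473, and 0.606 CPM in CON and 0.170, 0.224, 0.516, 0.806, and 0.239 CPM in MAL. In MAL-BG the lowest library had 0.827, the median was 2.53, and the highest, replicate 5, had 6.62 CPM. All MAL-BG libraries lay above all others, as held for 6.17% of all genes, but the lowest lay only just above MAL replicate 4. Nlrp12 passed the filter only through MAL-BG, since no CON or MAL library had more than 10 counts, so a difference was built into its being tested. Counts were 2 to 10 in those 9 libraries and 12 to 122 in MAL-BG. Nlrp12 rose by 2.38 on the log2 scale against CON (SE 0.58, adjusted p = 0.00361 in edgeR) and by 2.71 against MAL (SE 0.55, adjusted p = 0.00101 in edgeR). Exons of Nlrp12 overlap the hairpin gene Mir292b on its own strand and other microRNA genes on the opposite strand, and the strand option of the counting is not given in the sources used here.

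**Figure D2:**
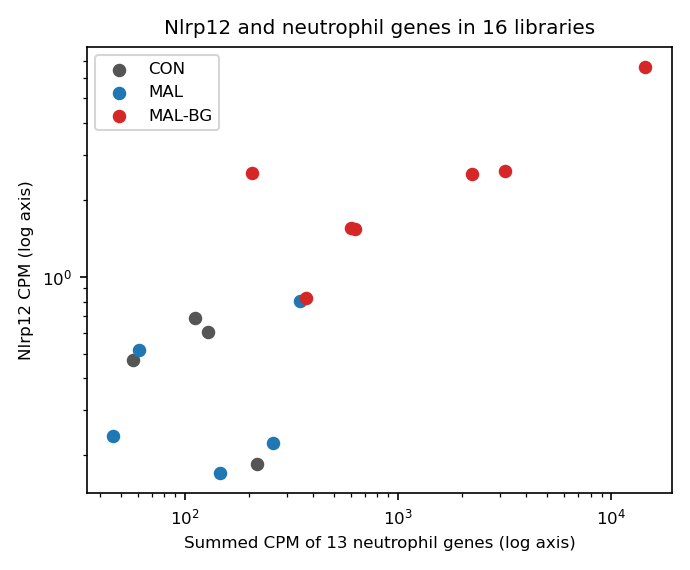
Nlrp12 CPM (vertical, log axis) against the summed CPM of 13 neutrophil genes without Csf3r (horizontal, log axis), 1 point per library of CON (n = 4), MAL (n = 5), and MAL-BG (n = 7). MAL-BG replicate 5 is highest on both axes (6.62 and 14447 CPM), while MAL-BG replicate 6, at 2.56 CPM of Nlrp12, has 207 CPM of neutrophil genes, within the CON and MAL range.

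Nlrp12 and the neutrophil genes were highest in the same library. MAL-BG replicate 5 had 6.62 CPM of Nlrp12 and 14447 CPM of the 13 neutrophil genes, replicate 7 had 2.60 and 3156, and replicate 2 had 2.53 and 2216. MAL-BG replicate 6 had 2.56 CPM of Nlrp12 with only 207 CPM of neutrophil genes, under CON replicate 2 (218) and MAL replicates 2 (260.5) and 4 (347), whose Nlrp12 was 0.186, 0.224, and 0.806 CPM. Without the 3 MAL-BG libraries of the highest neutrophil level, a choice made after seeing the data, the log2 fold change of Nlrp12 was 1.77 against CON (adjusted p = 0.0222 in edgeR) and 2.11 against MAL (adjusted p = 0.00823 in edgeR). Since the filter fixed its direction, these are given as values only and do not separate Nlrp12 from the neutrophil level. In the same fit, Nlrp3, Nlrp1b, and Nlrc4 changed by -1.12, -1.38, and -1.66 against CON and were called. The part of neutrophil RNA in the level of Nlrp12 was not tested beyond these values.

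The peptidoglycan sensors were not called in either MAL-BG comparison. Nod1, which senses diaminopimelic acid (ENSMUSG00000038058, chromosome 6, 54923942 to 54972674), was at 53 ± 4.27 CPM (SD, n = 4) in CON, 59.1 ± 6.74 (n = 5) in MAL, and 51.3 ± 5.10 (n = 7) in MAL-BG. Its log2 difference from CON was -0.05 (95% interval -0.27 to 0.18, adjusted p = 0.731 in edgeR) and from MAL -0.21 (interval -0.41 to 0.00, adjusted p = 0.0921 in edgeR). The sign of the Nod1 difference depended on scaling. Across the scalings tried it ran from -0.07 to 0.29 against CON and from -0.23 to 0.09 against MAL. Nod2, the receptor for muramyl dipeptide (ENSMUSG00000055994, chromosome 8, 88647315 to 88688474), had 9.44, 8.63, 9.06, and 8.86 CPM in CON and 12.3, 11.3, 8.60, 8.14, and 11.9 CPM in MAL. In MAL-BG it ran from 6.23 through 8.16 to 9.49 CPM, overlapping both groups. Nod2 passed the adjusted p against MAL (log2 fold change -0.40, SE 0.16, adjusted p = 0.0475 in edgeR) but not the fold threshold, and did neither against CON (-0.19, adjusted p = 0.388 in edgeR).

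Among the shared downstream parts, only Pycard passed the adjusted p. Pycard encodes ASC, whose polymers are the scaffold of most inflammasomes (ENSMUSG00000030793, chromosome 7, 127991373 to 127993867). It was at 103.6, 86.2, 113, and 84.3 CPM in CON and at 97, 89.3, 74.2, 112, and 102 CPM in MAL, while MAL-BG ran from 89.3 through 127 to 154 CPM. The groups overlapped through MAL-BG replicate 3, the lowest, and the other 6 MAL-BG libraries were above all CON and MAL libraries. Its log2 fold change was 0.37 against CON (SE 0.14, adjusted p = 0.0419 in edgeR) and 0.40 against MAL (SE 0.13, adjusted p = 0.0210 in edgeR), under the fold threshold. By adjusted p alone, 5 members passed against CON and 6 against MAL, where 45.1% and 44.3% of all genes did. An exon of Gm45205 overlaps Pycard on the opposite strand.

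Casp1, the protease at the center of the pathway (ENSMUSG00000025888, chromosome 9, 5298517 to 5307281), had 38.8 ± 6.31 CPM (SD, n = 4) in CON, 41.1 ± 4.76 (n = 5) in MAL, and 34.4 ± 12.2 (n = 7) in MAL-BG. MAL-BG spread most, with replicates 2 and 3 at 18.7 and 19 CPM and replicate 6 at 49.2 CPM. The log2 difference was -0.17 against CON (95% interval -0.67 to 0.32) and -0.26 against MAL (interval -0.72 to 0.21). Gsdmd, whose cleaved product opens the membrane (ENSMUSG00000022575, chromosome 15, 75862144 to 75867408), was at 235, 111, 141, and 113 CPM in CON, 182, 145, 137, 229, and 144 CPM in MAL, and from 136 through 203 to 206 CPM in MAL-BG. Its log2 difference was 0.32 against CON (interval -0.12 to 0.75, adjusted p = 0.207 in edgeR). Without CON replicate 1 it was 0.60 and was called (adjusted p = 0.00924 in edgeR), so 1 library decided that call. Against MAL it was 0.16 (interval -0.24 to 0.56). Il18 encodes a cytokine precursor (ENSMUSG00000039217, chromosome 9, 50554700 to 50581841) and averaged 23.8 ± 6.36 CPM (SD, n = 4) in CON, 26.8 ± 7.58 (n = 5) in MAL, and 27.7 ± 2.88 (n = 7) in MAL-BG. Its log2 difference was 0.22 against CON (interval -0.16 to 0.61) and 0.05 against MAL (interval -0.31 to 0.41).

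**Figure D3:**
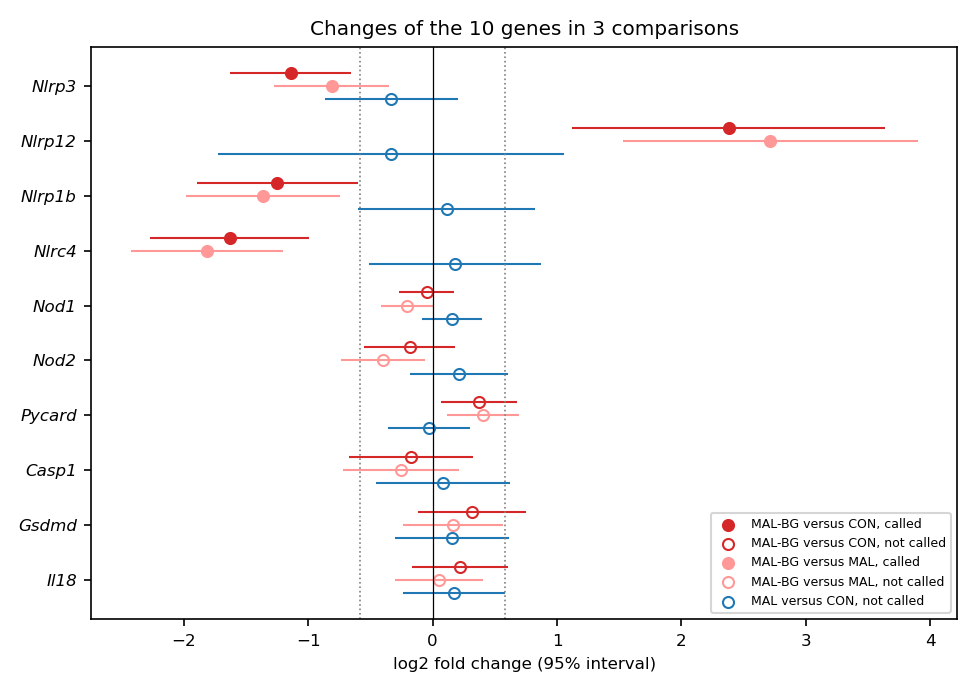
Log2 fold change (horizontal axis) with its 95% interval for each of the 10 genes in MAL-BG versus CON, MAL-BG versus MAL, and MAL versus CON. Filled points were called, open points were not, and dotted lines mark the fold threshold of 0.58. The 4 called genes are Nlrp3, Nlrp12, Nlrp1b, and Nlrc4, and no point of MAL versus CON is filled.

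MAL and CON differed in none of the 10 genes by this test. The adjusted p was 0.999 for each, and the unadjusted p of the 10 ran from 0.173 (Nod1) to 0.847 (Pycard). Over all genes, 0 were called in edgeR (0%) and 0 in DESeq2, and 212 (1.46%) had an unadjusted p under 0.05 in edgeR, beside 52.7% in MAL-BG versus CON and 52.2% in MAL-BG versus MAL. The intervals were wide for the scarce genes, from -1.72 to 1.05 on the log2 scale for Nlrp12 and from -0.51 to 0.87 for Nlrc4, and narrower for Nod1, from -0.08 to 0.40, and Pycard, from -0.36 to 0.30. Nlrp3 was at -0.33 with an interval of -0.86 to 0.20, so a difference of the size seen in MAL-BG against CON (-1.14) lies outside this interval.

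Levels of different genes were compared as CPM per kilobase of exon. In CON the order from high to low was Gsdmd (63.2), Nlrp3 (62.7), Pycard (45.4), Casp1 (25.9), Il18 (23.1), Nlrp1b (13.9), Nod1 (10.4), Nod2 (1.79), Nlrc4 (1.60), and Nlrp12 (0.065). Gsdmd and Nlrp3 could not be ordered there, since Gsdmd was above Nlrp3 in 1 of 4 CON libraries, and Nlrp1b was above Nod1 in 2 of 4. Casp1 stood above Il18, and Nod2 above Nlrc4, in 3 of 4. The other neighbors kept their order in all 4 CON libraries. For Pycard, 2135 of its 3800 exon bases were used as the length, and its place above Casp1 in CON depends on that choice. In MAL-BG the per-kilobase level of Gsdmd was 78.7, Pycard 58.8, and Nlrp3 28.4. Nlrp1b, at 5.84, was below Nod1, at 10.1, and Nlrp12, at 0.345, had the lowest mean. Nlrp12 was nevertheless above Nlrc4 in MAL-BG replicate 5 (0.877 against 0.653) and replicate 7 (0.344 against 0.335).

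Single libraries were often at the edge of their group. CON replicate 1 had the highest CON level of 9 of the 10 genes (Pycard excepted), and MAL replicate 4 the highest MAL level of 7 but the lowest of Nod1 and Nod2. MAL-BG replicate 3 had the lowest MAL-BG level of 6 (Gsdmd, Il18, Nlrp12, Nlrp1b, Nlrp3, and Pycard) and the highest of Nod1. For each gene, the single other gene most like it was found from Pearson's r of log2 CPM after each group's mean was subtracted, over the same 16 libraries, which share depth and cell mixture. These were Itgae for Nlrp3 (r = 0.911), Kif2c for Nlrp12 (0.900), Nfx1 for Nlrp1b (0.967), Narfl for Nlrc4 (0.908), and Sgsm1 for Nod1 (0.876). They were Rnf121 for Nod2 (0.797), Srd5a3 for Pycard (0.919), Eif4a1 for Casp1 (0.967), Mfng for Gsdmd (0.973), and Ppid for Il18 (0.928). Each is the highest of many correlations and is given as a description only.

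The rest of the pathway was followed in 5 lists of 70 genes, of which 63 were tested. Against CON, 11 were called higher and 14 lower, and against MAL 8 and 14, where 33.1% and 30.4% of all genes were called. The counts of each list are to be read beside the shares of all genes called higher and lower given above. Their median log2 fold changes, -0.09 and -0.05, lay near those of all genes. In MAL versus CON, 0 of the 63 were called.

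**Figure D4:**
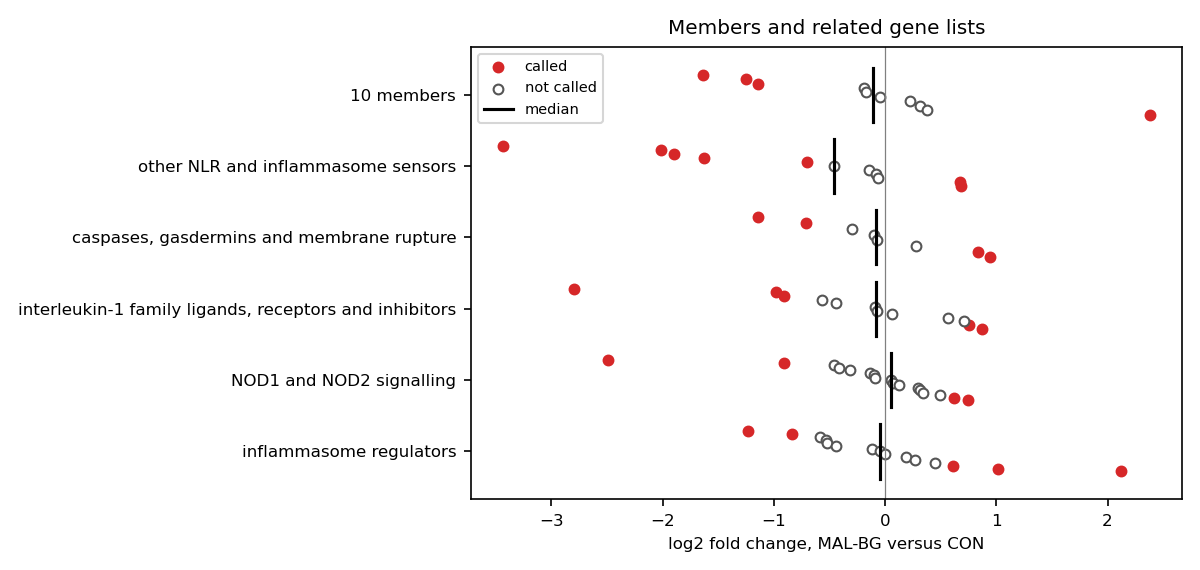
Log2 fold change of MAL-BG versus CON (horizontal axis) for the 10 genes and the tested genes of 5 related lists, 1 point per gene, with called genes filled and list medians as black bars. Among the other sensors 5 genes were called lower and 2 higher, with a median of -0.45, while the medians of the other 4 lists lie between -0.09 and 0.05.

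Other NLR and inflammasome sensors were called lower in 5 of 11 tested against CON and 6 of 11 against MAL, and higher in 2 and 0. Nlrp1c-ps, the pseudogene beside Nlrp1b, fell from 25.6 ± 12.5 CPM (SD, n = 4) in CON and 27.1 ± 9.87 (n = 5) in MAL to 2.35 ± 1.62 (n = 7), a log2 change of -3.43 against CON. Ciita, the switch for MHC class II genes, fell from 9.12 ± 3.01 and 14.4 ± 3.83 to 2.43 ± 1.76 CPM, by 1.89 on the log2 scale against CON and by 2.55 against MAL. Mefv, which encodes the sensor pyrin, fell from 8.11 ± 2.90 and 9.42 ± 3.13 to 2.61 ± 2.21 CPM. Nlrc3, an NLR that restrains immune signaling, was at 1.16 ± 0.418, 1.16 ± 0.691, and 0.273 ± 0.274 CPM. It was called lower (log2 fold change -2.01 against CON, adjusted p = 0.0170 in edgeR), but not without the 3 MAL-BG libraries of the highest neutrophil level (adjusted p = 0.102 in edgeR). Nlrc3 had only 59 counts over all CON libraries, 70 over MAL, and 32 over MAL-BG. It could not pass the low-count filter through MAL-BG alone, so the filter favored a lower level there. The NAIP genes, which serve Nlrc4, are near-identical copies and their counts are uncertain.

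Caspases, gasdermins, and membrane rupture genes split evenly, with 2 of 8 called higher and 2 lower in each MAL-BG comparison. Casp4, the sensor protease for cytosolic lipopolysaccharide, fell from 31.8 ± 4.75 CPM (SD, n = 4) in CON and 23.1 ± 5.83 (n = 5) in MAL to 14.4 ± 3.56 (n = 7), by 1.14 and 0.68 on the log2 scale, although without MAL replicate 5 the change against MAL was -0.54, under the fold threshold. Across the scalings tried, the Casp4 change against MAL ran from -0.70 to -0.46, so that call depended on scaling too. Fadd, a death-receptor adaptor, rose from 13 ± 0.805 and 15.2 ± 2.91 to 23.3 ± 3.34 CPM, by 0.84 against CON and 0.62 against MAL on the log2 scale. Without MAL replicate 3 or 4 or MAL-BG replicate 5 its change against MAL was 0.53, 0.57, and just under 0.58, below the threshold. Casp8, at 162 ± 44.2, 165 ± 28.5, and 98.7 ± 49.4 CPM, and Gsdme (named Dfna5 in the table), at 3.25 ± 0.691, 3.39 ± 0.909, and 6.29 ± 3.66 CPM, were called only narrowly (adjusted p = 0.0450 and 0.0475 against CON in edgeR). Against CON, Casp8 lost the call under 20 of 26 alternatives and Gsdme under 16, among them the fit without MAL-BG replicate 5 for Gsdme (log2 fold change 0.61).

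Of the 12 interleukin-1 family ligands, receptors, and inhibitors, 2 were called higher and 3 lower against CON, and 1 and 2 against MAL. Il1a, a cytokine that needs no inflammasome for its activity, fell from 782 ± 115 CPM (SD, n = 4) in CON and 428 ± 215 (n = 5) in MAL to 112 ± 40.4 (n = 7). Il1a fell by 2.80 on the log2 scale against CON (SE 0.31, adjusted p = 1.07e-05 in edgeR) and by 1.93 against MAL, beside the lower early response genes described with Nlrp3, whose part was not tested. Il33, an alarmin of glia, fell by 0.98 against CON and 0.95 against MAL, and Sigirr, an inhibitory receptor, rose by 0.87 and 1.18. Against CON, Il33 lost the call under 8 of 26 alternatives and Sigirr under 6, among them the fits without CON replicate 1, 2, or 3 for Sigirr and without CON replicate 2, 3, or 4 for Il33. Il1b, the main substrate of caspase-1 and named here after its values were seen, was at 243 ± 39.4, 148 ± 63.6, and 129 ± 47.5 CPM, called lower against CON (-0.91, adjusted p = 0.0153 in edgeR) but not against MAL (-0.19, adjusted p = 0.577 in edgeR).

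Among 17 genes of NOD1 and NOD2 signaling, 2 were called higher and 2 lower against CON, and 3 and 1 against MAL. Tnfaip3, the deubiquitinase A20 that shuts off NF-kB, fell from 1070 ± 359 CPM (SD, n = 4) in CON and 718 ± 206 (n = 5) in MAL to 191 ± 59.2 (n = 7), by 2.49 and 1.91 on the log2 scale. Otulin, which removes linear ubiquitin chains, rose from 38.4 ± 3.88 and 38.8 ± 8.32 to 64.4 ± 14.7 CPM. Slc15a4, a lysosomal transporter that carries muramyl dipeptide, rose from 93.8 ± 22.3 and 94.6 ± 10.4 to 144 ± 21.1 CPM, but its log2 fold change fell under the threshold without CON replicate 2 or 4 (0.53 and 0.52), and likewise against MAL without MAL replicate 2 or 3 (0.55 and 0.56). Against MAL it was also just under the threshold at the lowest of the scalings tried (0.577). Ripk2, the kinase that NOD1 and NOD2 share and named here after its values were seen, differed by 0.05 on the log2 scale from CON (adjusted p = 0.751 in edgeR).

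Of 15 inflammasome regulators, 3 were called higher and 2 lower against CON, and 2 and 3 against MAL. Panx1, a channel that releases ATP, rose from 6.22 ± 1.58 CPM (SD, n = 4) in CON and 7.38 ± 0.929 (n = 5) in MAL to 12.6 ± 2.20 (n = 7). Hdac6, a deacetylase linked to aggresome transport, fell from 37 ± 8.32 and 31.8 ± 3.42 to 20.7 ± 2.20 CPM. Its change against MAL, -0.62, was -0.56, -0.54, and -0.54 without MAL replicate 4, MAL-BG replicate 4, and MAL-BG replicate 7, under the threshold. Across the scalings tried, the Hdac6 change ran from -0.65 to -0.33 against MAL and from -0.85 to -0.53 against CON. Hdac6 lost the call under 5 of 26 alternatives against MAL and under 1 against CON. Mark4, a microtubule kinase, was at 33.9 ± 2.85, 29.3 ± 4.22, and 14.4 ± 10.7 CPM and was called lower, but under 14 of 26 alternatives it was not called against MAL. Serpinb1a, a protease inhibitor abundant in neutrophils, was at 3.89 ± 2.92, 3.42 ± 0.683, and 16.9 ± 26.7 CPM. It was called higher against CON (log2 fold change 2.12), but not without MAL-BG replicate 5 (0.80, adjusted p = 0.181 in edgeR). Without CON replicates 1 to 3 in turn it was 1.83 to 2.13 and was likewise not called.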

How the data were processed

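CD11b+ brain cells were sequenced as 16 stranded poly(A) libraries, 4 of them CON, 5 MAL and the other 7 MAL-BG. Per the labels and the methods of the study, the authors aligned paired reads to GRCm38.p6 with STAR and counted reads per gene with HTSeq, and deposited the raw counts, not normalized. The counting mode and annotation are not given in the sources used here. Of 24421 genes, 14565 exceeded 10 counts in 4 libraries or more and entered the test in edgeR 4.0.16 (R 4.3.3, limma 3.58.1), with TMM scaling and 1 fit of the 3 groups. CPM used effective library sizes, and 95% intervals used the fit's 13 residual degrees of freedom. DESeq2 1.42.0 was an alternative, and the edgeR test was tested on simulated counts. Levels per kilobase used GENCODE M21 exon bases lying within RefSeq gene bounds. Start-site regions came from RefSeq. Python 3.11.15 with pandas 2.3.3 and matplotlib 3.10.9 was used for sequences and plots.

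The code of the study has a batch term, but the batch of each library is not named in the sources used here. Batch could therefore not be adjusted for, and its part in the group differences was not tested. No 2 replicates agreed within sampling noise. The labels do not state that each library came from separate animals, so p-values measure the spread between these libraries. The table columns were assigned to groups, not to single samples, and replicate numbers are names only. Gene names that a spreadsheet had turned into dates (27) and names on more than 1 row (2) were left as deposited.

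The members and lists were chosen with earlier results of these data known. All 10 members are named. Of each pathway list, up to 4 genes are named, those with the largest change against CON among the genes called in both MAL-BG comparisons (3 in the interleukin-1 and NOD signaling lists, where no more were).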

Additional observations from a re-analysis of the deposited data

Results flagged for a closer look

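Of 36 groups of 4 to 7 libraries checked for a single library far from the others (Dixon's test), 5 held one, and chance alone gives about 1 in 20. Nlrp12 was at 6.62 CPM in MAL-BG replicate 5, against 2.60 in the next library. In the same library the summed neutrophil markers, Csf3r included, were at 15036 CPM, against 3499 in the next. Nlrp1b was at 159 CPM in CON replicate 1, against 68.5 in the next. Gsdmd was at 136 CPM in MAL-BG replicate 3, against 177 in the next. Il18 was at 40.2 CPM in MAL replicate 4, against 24.6 in the next.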

How the results depend on the processing

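Under 26 alternatives per comparison, Nlrp3, Nlrp1b, and Nlrc4 kept their direction and were called against CON and against MAL each time. Nlrp12 was called higher each time too, which says nothing of its stability, since its direction was fixed by the filter. In MAL versus CON 0 members were called. Against CON the log2 fold changes ran from -1.27 to -0.89 for Nlrp3, -1.43 to -0.80 for Nlrp1b, -1.83 to -1.26 for Nlrc4, and 1.77 to 2.78 for Nlrp12, with adjusted p up to 0.00794, 0.0259, 0.00444, and 0.0222 in edgeR or DESeq2. Against MAL they ran from -0.98 to -0.597 for Nlrp3, -1.49 to -1.045 for Nlrp1b, and -1.90 to -1.60 for Nlrc4. Adjusted p there reached 0.0426, 0.0114, and 0.00232 in edgeR or DESeq2. The weakest Nlrp3 change against MAL came with a change of scaling and lay just past the fold threshold of 0.58. The Nlrp3 call against MAL was therefore less firm than the call against CON. Members called higher numbered 2 rather than 1, in both MAL-BG comparisons, with scaling by the mean log2 CPM (Pycard, 0.62 against CON and 0.62 against MAL) and with the adjusted p alone (Pycard). Leaving out 1 library at a time gave 1 to 2 against CON, the 2 without CON replicate 1 (Gsdmd). Members called lower against MAL numbered 4 rather than 3 with the adjusted p alone (Nod2). The cause of the change with scaling was not tested. Over all genes, 3885 to 6566 were called against CON and 3461 to 6457 against MAL. No paired analysis was possible because the numbers of the table columns match no sample title, so no replicate number ties libraries across groups. Nlrp12, with 2 to 10 counts per CON and MAL library, and Nlrc4, with 18 to 48 per MAL-BG library, are limited by depth, and every MAL-BG library was deeper than every other.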
